A study of Mus musculus with 8 samples.

Results

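Bone marrow of adult mice that lacked type XVIII collagen (Col18a1-/-) was compared with bone marrow of wild-type mice (Col18a1+/+) on 4 arrays, 2 for each genotype, out of 8 arrays in the series. The arrays were taken by their titles, and all genes of the array were compared with 1 probe set per gene. Each array held total RNA pooled from 2 littermates, all mice being males of strain C57B6/J at 3 months of age. Marrow was flushed from femur and tibia and passed through a mesh to give a suspension of single cells, so every value is an average over all cells that reached the suspension, and fewer cells of a type and less RNA per cell cannot be told apart. The other 4 arrays held liver of embryos at embryonic day 14.5 with the same 2 genotypes, their sex undetermined, and are used here for the spread of the fit and for a single comparison at the end. The labels give the knockout as Col18a1-/- and name no Cre or transgene. The design text speaks of wild-type littermates and the housing notes of separate lines of each genotype, so whether wild-type and knockout mice came from the same litters is not settled by the labels.

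Type XVIII collagen is a collagen and heparan sulfate proteoglycan of basement membranes, the thin matrix sheets under endothelium and epithelium, and its C-terminal fragment, endostatin, is known for restraining the growth of blood vessels. In bone marrow, blood cells form in the spaces between sinusoidal vessels, in contact with stromal cells that make matrix and growth factors. Megakaryocytes, very large and rare polyploid cells, lie against these vessels, load granules with proteins such as von Willebrand factor and platelet factor 4, and extend microtubule-filled processes through the vessel wall that break up into platelets.

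Levels are log2 of the deposited intensity. They are comparable between arrays for the same gene but not between genes. The median intensity of a bone marrow array lay between 42.1 and 42.6, and arrays correlated across probe sets at r = 0.997 within each genotype and 0.996 to 0.997 between genotypes, probe sets not being independent replicates. As a sign of RNA quality, control probe sets at the 3-prime end exceeded those at the 5-prime end of beta-actin by 0.73 and 0.68 (log2) in wild-type and 0.67 and 0.62 in knockout, and of Gapdh by 0.78 and 0.56 in wild-type and 0.73 and 0.48 in knockout. The tissue label was borne out by markers. Granule and surface genes of late neutrophils reached wild-type levels of 8.54 to 14.9, erythroid genes 7.48 to 14.3 and genes of pro-B and pre-B cells 7.23 to 14.5, while 1 of 10 cartilage genes was bright enough to be tested. Precision is limited by having 2 arrays per genotype, p-values measure only the spread between pools of mice, and an exact two-sided permutation test of 2 arrays against 2 cannot go below 0.333. The p-values below therefore come from limma, fitted to all 8 arrays and 13136 genes with a spread shared by the 4 groups, and a gene is said to have risen or fallen where its adjusted p was under 0.05. That spread was an average over tissues, the median SD being 0.0631 and 0.0693 in wild-type and knockout bone marrow against 0.0829 and 0.106 in fetal liver.

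The targeted gene was checked first. Col18a1, on chromosome 10, has 2 probe sets. The brighter of them stood at 7.84 and 7.85 in wild-type bone marrow and at 5.63 and 5.99 in knockout bone marrow. The other stood at 7.39 and 7.33 in wild-type and at 6.13 and 5.91 in knockout. On both probe sets each knockout array lay below each wild-type array, and the knockout arrays lay farther apart than the wild-type arrays. Col18a1 fell by 2.03 ± 0.13 (log2, SE; adjusted p = 0.000787, limma) on the brighter probe set. The labels do not say which exons were removed, so the signal left in knockout is no measure of how complete the deletion is.

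Knockout bone marrow had lower expression of genes that included many of megakaryocytes and platelets, and higher expression of a few inducible genes. Of 13136 genes, 54 (0.411%) passed, 48 (0.365%) lower and 6 (0.0457%) higher in knockout (limma). Beside Col18a1, 47 genes fell, by 0.62 to 2.15 on the log2 scale, or 1.54-fold to 4.45-fold, with a median fall of 1.10 (log2). Of these 47 genes, 18 were members of lists of megakaryocyte and platelet genes, 10 of other lists only and 19 of none of the lists. The balance was also toward falls among the largest differences, whether called or not, since 41 genes had a difference of -1 or lower and 7 had a difference of 1 or higher. Across all genes tested the median difference was 0.01, and 508 genes (3.87%) were lower and 378 (2.88%) higher at an unadjusted p under 0.05 (limma).

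**Figure D1:**
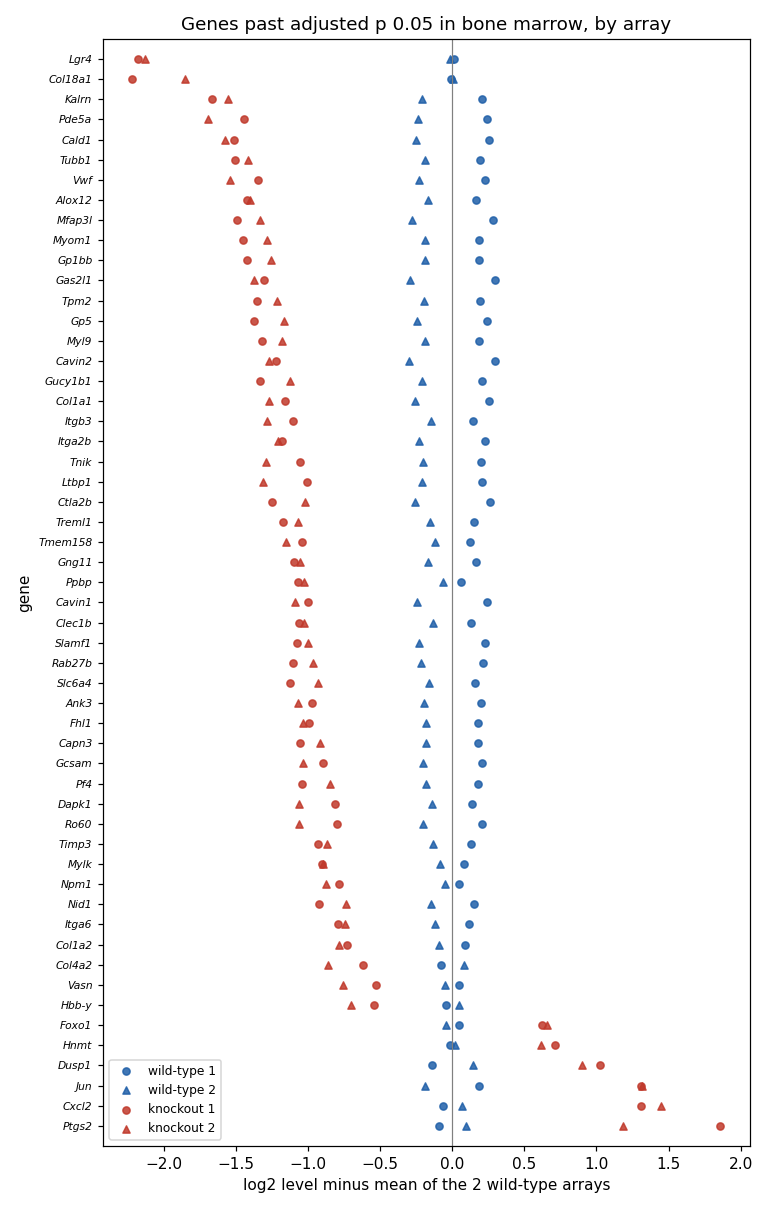
Each row is a gene that passed in bone marrow, and each mark is the log2 level of the gene on a bone marrow array minus the mean of the 2 wild-type arrays (circles for replicate 1, triangles for replicate 2). The wild-type circle lies right of the wild-type triangle for 45 of the 47 genes that fell beside Col18a1, and the knockout marks of every gene shown lie clear of its wild-type marks.

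The count rested on few arrays. It was 2 without either knockout array, Lgr4 and Col18a1, 8 without wild-type replicate 1, 76 without wild-type replicate 2 and 3 in a fit of the 4 bone marrow arrays alone, namely Lgr4, Col18a1 and Cxcl2 (limma). Lgr4 and Col18a1 alone kept their calls in each of the 8 fits that left out 1 array. The alternatives were run for the 54 called genes and 39 others, and these 93 differences kept their sign in each. The alternatives were not run for the single differences of other list members. Where each probe set was fitted on its own, only the probe set chosen for the gene was counted. Some other probe sets, described below, had the opposite sign, among them those of Vasn, Tmem158 and Foxo1. The 2 wild-type arrays also stood apart for the genes that fell: wild-type replicate 1 lay above wild-type replicate 2 for 45 of the 47 genes, the exceptions being Col4a2 and Hbb-y, and by over 0.2 (log2) for 39 of them. Such a gap was found for 10.9% of all genes tested, and its median was 0.38 for the 47 genes against 0.02 for all genes. The knockout arrays showed no such order, replicate 1 being the higher for 22 of the 47 genes with a median gap of -0.02. What sets the wild-type arrays apart, and its part in the falls, was not tested.

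Genes of megakaryocytes and platelets were described by role. Of 96 tested members of the 6 lists, 18 fell and 0 rose (limma), against 0.365% lower among all genes, and 45 of the 96 were lower at an unadjusted p under 0.05. The difference was negative for 83 of the 96, with a median of -0.25 against 0.01 for all genes. On 61 of the 96 the knockout arrays lay below both wild-type arrays, as they did on 19.3% of all genes, and on 9 they lay above both, as on 23.8% of all genes.

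**Figure D2:**
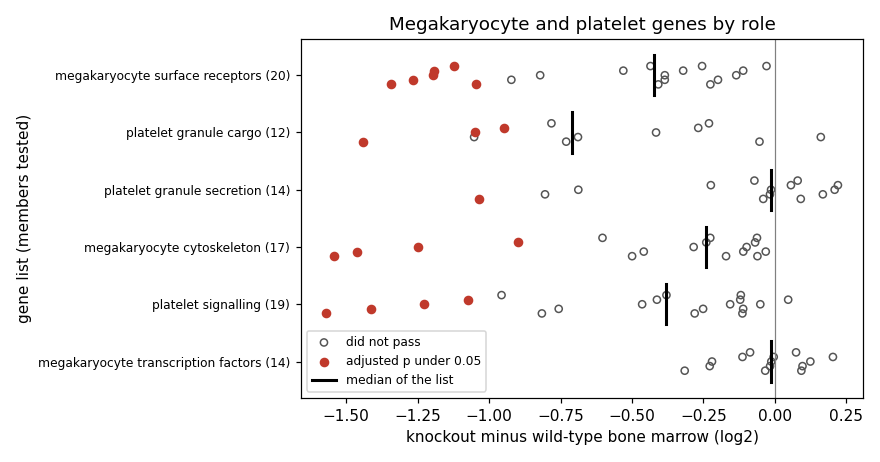
Knockout minus wild-type difference in bone marrow (log2, horizontal axis) for each tested gene of the 6 lists of megakaryocyte and platelet genes (vertical axis, members tested in parentheses), with genes past an adjusted p of 0.05 filled and the list median as a bar. The medians run from -0.71 for platelet granule cargo to -0.01 for megakaryocyte transcription factors, and no member of the transcription factor list passed.

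Among surface receptors, 6 of 20 tested genes fell and all 20 were negative, with a median of -0.42. Platelets bind von Willebrand factor through the GPIb-IX-V complex. Gp1bb, its GPIb beta subunit, stood at 9.52 and 9.15 in wild-type and 7.91 and 8.08 in knockout, and Gp5, its GPV subunit, at 8.95 and 8.46 in wild-type and 7.34 and 7.54 in knockout. In both genes the knockout arrays lay within 0.21 of each other and below the lower wild-type array. Gp1bb fell by 1.34 ± 0.15 (SE; adjusted p = 0.0114, limma), and Gp5 fell by 1.27 ± 0.15 (adjusted p = 0.013, limma). Gp9, the remaining subunit measured, stood at 9.37 and 9.07 in wild-type and 8.42 and 8.38 in knockout and did not pass (difference -0.82 ± 0.14, adjusted p = 0.0644, limma). The fibrinogen receptor is a pair of integrin chains. Its alpha chain, Itga2b, stood at 10.03 and 9.57 in wild-type and 8.62 and 8.60 in knockout, and its beta chain, Itgb3, at 9.94 and 9.65 in wild-type and 8.70 and 8.51 in knockout. The chains fell by nearly the same amount, Itga2b by 1.19 ± 0.14 (adjusted p = 0.0126, limma), while Itgb3 fell by 1.19 ± 0.14 (adjusted p = 0.012, limma). Clec1b, the receptor for podoplanin, fell by 1.05 ± 0.12 and Treml1, a receptor stored in platelet granules, fell by 1.12 ± 0.11. Not all receptors were equally lower. The adhesion molecule Esam differed by -0.92, the ATP-gated channel gene P2rx1 by -0.53 and the collagen receptor gene Gp6 by -0.39, none of which passed, and Itga2, the alpha chain of the other platelet collagen receptor, differed by -0.03.

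Genes of granule cargo had the lowest median of the lists, -0.71 over 12 tested genes, of which 3 fell. Vwf, which encodes von Willebrand factor, stood at 8.75 and 8.30 in wild-type and 7.18 and 6.98 in knockout and fell by 1.44 ± 0.16 (adjusted p = 0.0111, limma). The platelet chemokine genes Ppbp and Pf4 neighbour each other on chromosome 5. Ppbp stood at 12.88 and 12.75 in wild-type and 11.74 and 11.79 in knockout, and Pf4 at 11.80 and 11.44 in wild-type and 10.58 and 10.77 in knockout. The wild-type arrays of Ppbp were 0.12 apart, a smaller gap than in most genes that fell, and those of Pf4 0.36. Ppbp fell by 1.05 ± 0.10 (adjusted p = 0.00682, limma), and Pf4 fell by 0.95 ± 0.13 (adjusted p = 0.0236, limma). Clu, which encodes clusterin, differed by -1.05, Thbs1, the thrombospondin gene, by -0.78, and Selp, the P-selectin gene, by -0.73, and none of these passed. Tgfb1, made by many cell types, differed by 0.16 and was the only positive member of the list. In the list of granule formation and release, by contrast, the median was -0.02 over 14 tested genes and 6 members were positive. Rab27b, a small GTPase that moves platelet granules to the surface, fell by 1.04 ± 0.17 (adjusted p = 0.0491, limma), standing at 8.25 and 7.82 in wild-type and 6.93 and 7.06 in knockout. Its effector gene Sytl4 differed by -0.80 and Nbea, which encodes neurobeachin, by -0.69 without passing, whereas Rab27a, a paralog used by many blood cells, differed by 0.21. Nbea was dim, at 4.27 and 3.97 in wild-type and 3.49 and 3.38 in knockout, under the level of 5 on each bone marrow array.

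Of the cytoskeletal list 4 of 17 tested genes fell, all 17 were negative and the median was -0.24. Tubb1, the beta-tubulin of the platelet marginal band, stood at 11.29 and 10.90 in wild-type and 9.59 and 9.68 in knockout and fell by 1.46 ± 0.13 (adjusted p = 0.00682, limma). The remaining 3 called members belong to actomyosin. Cald1, which encodes the actin-binding protein caldesmon, stood at 9.97 and 9.46 in wild-type and 8.21 and 8.15 in knockout and fell by 1.54 ± 0.16 (adjusted p = 0.009, limma). Myl9, a myosin regulatory light chain, fell by 1.25 ± 0.14, and Mylk, the kinase that phosphorylates this light chain, fell by 0.90 ± 0.12. Of members that did not pass, Parvb, the beta-parvin gene, differed by -0.60, Tpm4, a tropomyosin gene, by -0.50, Tln1, the talin gene, by -0.23, Flna, the filamin A gene, by -0.11 and Myh9, the non-muscle myosin heavy chain gene, by -0.03. Tpm2, which encodes beta-tropomyosin and was in none of the lists, stood at 9.67 and 9.28 in wild-type and 8.12 and 8.26 in knockout and fell by 1.28 ± 0.14 (adjusted p = 0.0111, limma).

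Of the signalling list 4 of 19 tested genes fell, 18 were negative and the median was -0.38. Of 5 named members of the cyclic GMP pathway, through which nitric oxide quiets platelets, 2 fell. Gucy1b1, the beta subunit of soluble guanylate cyclase, stood at 6.34 and 5.92 in wild-type and 4.80 and 5.00 in knockout and fell by 1.23 ± 0.14 (adjusted p = 0.012, limma). Pde5a, the phosphodiesterase that degrades cyclic GMP, stood at 8.04 and 7.56 in wild-type and 6.36 and 6.11 in knockout and fell by 1.57 ± 0.16 (adjusted p = 0.009, limma). The alpha subunit gene Gucy1a1 differed by -0.96, the cyclic GMP-dependent kinase gene Prkg1 by -0.76 and its substrate gene Mrvi1 by -0.82, none of them passing. Alox12, the platelet 12-lipoxygenase that turns arachidonic acid into hydroxy fatty acids, stood at 9.18 and 8.84 in wild-type and 7.58 and 7.60 in knockout and fell by 1.41 ± 0.12 (adjusted p = 0.00619, limma). Gng11, a G protein gamma subunit, fell by 1.08 ± 0.14, while Tbxas1, the thromboxane synthase gene, which macrophages also express, differed by -0.05.

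Transcription factors that build the megakaryocyte lineage did not share this pattern in whole marrow. The values average all marrow cells, so levels of these factors within megakaryocytes are not given. Of 14 tested factors 0 passed in either direction, and 0 had an unadjusted p under 0.05 (limma), with a median of -0.01. Gata1, which is shared with red cell precursors, stood at 10.11 and 10.09 in wild-type and 10.25 and 10.20 in knockout. Fli1 differed by -0.32, Meis1 by -0.23, Nfe2 by -0.03, Runx1 by -0.02 and Gata2 by 0.10. The sign of this median changed with the processing, being 0.02 with the mean of all probe sets of a gene and 0.02 without knockout replicate 1. The list mean was equal on the wild-type arrays to within 0.01, whereas wild-type replicate 1 exceeded replicate 2 by 0.20 in the receptor list, 0.29 in the cargo list, 0.14 in the secretion list, 0.20 in the cytoskeletal list and 0.21 in the signalling list.

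The stretches before the start sites are shown for 4 of the genes that passed. These 4 were picked by hand among windows that held a searched word, so their matches follow from the choice. RefSeq (GRCm38.p6) gave a window of 250 bases before the start site for 14 of the 18 megakaryocyte and platelet genes that fell, 36 of the 47 genes that fell beside Col18a1 and 6 of the 6 genes that rose. Words were searched on both strands in all 32851 windows of the table: AGATAA for GATA factors, CAGGAAG for ETS factors, TGTGGT for RUNX factors, TGANTCA for AP-1, TGACGTCA for cyclic AMP response factors and a longer word for NF-kB. Capitals mark the matches, and each sequence reads 5-prime to 3-prime on the strand of its gene. Gp5 (minus strand, chr16:30310782-30311031) has GATA words starting 93 and 77 bases before its start site. Gp1bb (minus strand, chr16:18622404-18622653) and Ppbp (plus strand, chr5:90768268-90768517) each have an AP-1 word, 77 and 204 bases before the start site. Dusp1 (minus strand, chr17:26508473-26508722), one of the genes that rose, has a cyclic AMP response word 143 bases before it.
Gp5: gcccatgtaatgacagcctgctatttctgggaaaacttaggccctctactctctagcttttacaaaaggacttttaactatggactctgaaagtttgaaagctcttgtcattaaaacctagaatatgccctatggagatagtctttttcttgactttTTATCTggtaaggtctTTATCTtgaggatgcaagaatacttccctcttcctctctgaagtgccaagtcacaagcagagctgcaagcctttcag
Gp1bb: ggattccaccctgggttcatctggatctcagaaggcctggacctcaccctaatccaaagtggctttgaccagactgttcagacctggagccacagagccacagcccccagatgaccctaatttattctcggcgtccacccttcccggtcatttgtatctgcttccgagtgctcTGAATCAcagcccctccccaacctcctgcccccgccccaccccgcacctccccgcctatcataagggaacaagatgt
Ppbp: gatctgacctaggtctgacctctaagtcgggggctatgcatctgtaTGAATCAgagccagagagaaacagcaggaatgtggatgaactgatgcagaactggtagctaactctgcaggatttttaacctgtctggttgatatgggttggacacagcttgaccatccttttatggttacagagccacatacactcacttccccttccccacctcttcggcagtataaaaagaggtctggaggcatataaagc
Dusp1: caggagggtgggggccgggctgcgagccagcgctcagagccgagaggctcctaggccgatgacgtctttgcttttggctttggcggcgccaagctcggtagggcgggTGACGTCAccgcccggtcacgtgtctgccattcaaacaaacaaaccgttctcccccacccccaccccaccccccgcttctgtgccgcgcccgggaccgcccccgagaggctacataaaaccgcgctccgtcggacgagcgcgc

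Few of the genes that passed held each word. Of the 14 megakaryocyte and platelet genes with a window, 1 (Gp5) held the GATA word, 0 the ETS word, 1 (Mylk) the RUNX word and 4 (Cald1, Gp1bb, Mylk and Ppbp) the AP-1 word. Of all windows in the table, 9.99% held the GATA word, 10.8% the ETS word, 14% the RUNX word and 6.75% the AP-1 word. A gene was counted where any of its windows held the word, while shares of all windows count single windows, so the measures are unlike. Of the 36 genes that fell with a window, 4 held the GATA word, 4 the ETS word, 6 the RUNX word, 5 the AP-1 word and 1 (Ltbp1) the cyclic AMP response word. Among the 6 genes that rose, Jun held the GATA word, Cxcl2 the ETS word, Ptgs2 the RUNX word and Dusp1 the cyclic AMP response word, which 1.55% of all windows held, and 0 held the AP-1 word. The NF-kB word was in 0.14% of all windows and in 0 of the 36 genes that fell and 0 of the 6 that rose. A match is a description of these letters and not a binding site.

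Of the genes that passed, Lgr4 had the largest fall and the smallest adjusted p. Lgr4, on chromosome 2, encodes a receptor for R-spondins, secreted proteins that strengthen Wnt signals by removing the ligases ZNRF3 and RNF43 from the cell surface. It stood at 7.72 and 7.69 in wild-type and 5.53 and 5.58 in knockout, and unlike most genes that fell it was level on the wild-type arrays. Lgr4 fell by 2.15 ± 0.09 (adjusted p = 7.43e-05, limma). A second, dim probe set of Lgr4 stood at 4.33 and 4.43 in wild-type and 4.34 and 4.53 in knockout, below the level of 5 that was asked of genes for testing. Lgr4 was the only called member of 26 tested genes of R-spondin and Wnt signalling, whose median was -0.06. The ligase genes Znrf3 and Rnf43 differed by -0.05 and -0.06, the co-receptor genes Lrp5 and Lrp6 by -0.07 and -0.05, and the Wnt target gene Axin2 by 0.05. Of the frizzled receptors, Fzd4 differed by -0.48 and Fzd1 by -0.43 without passing.

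Among the 19 genes that fell outside the lists, Kalrn stood at 8.45 and 8.04 in wild-type and 6.58 and 6.69 in knockout and fell by 1.61 ± 0.14 (adjusted p = 0.00619, limma). Cavin2 and Cavin1, coat proteins of caveolae, fell by 1.25 ± 0.18 and by 1.05 ± 0.15, Cavin2 standing at 10.04 and 9.45 in wild-type and 8.52 and 8.47 in knockout. Slc6a4, the serotonin transporter through which platelets load serotonin, stood at 7.51 and 7.19 in wild-type and 6.22 and 6.42 in knockout and fell by 1.03 ± 0.15 (adjusted p = 0.0312, limma). Each of these genes had the order seen in the megakaryocyte lists, with wild-type replicate 1 highest and the knockout arrays close together. Gas2l1, a linker of actin and microtubules, fell by 1.34 ± 0.19, the kinase gene Tnik fell by 1.17 ± 0.14, Ltbp1, which binds latent TGF-beta in the matrix, fell by 1.16 ± 0.15, and the LIM protein gene Fhl1 fell by 1.01 ± 0.14. Mfap3l, Ctla2b, Tmem158, Gcsam, Vasn and Dapk1 also fell, by 0.64 to 1.41. Vasn was dim, at 5.43 and 5.33 in wild-type and 4.86 and 4.63 in knockout. Other probe sets that reached a level of 5 differed by 0.23 for Vasn, 0.10 for Tmem158, -0.10 for Dapk1 and -1.40 for Gcsam. Their differences were -0.48 for Kalrn, -0.19 for Cavin1, -0.18 for Gas2l1 and -0.73 for Tnik. Gcsam reached the level of 5 asked for testing on the wild-type bone marrow arrays alone, and Gcsam and Ptgs2 are the 2 called genes that entered the test through a single bone marrow group.

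Npm1 and Ro60 were further called genes outside the lists. Npm1, which encodes nucleophosmin, an abundant nucleolar protein of dividing cells, stood at 12.94 and 12.85 in wild-type and 12.11 and 12.02 in knockout, and its 2 wild-type arrays were 0.09 apart. Npm1 fell by 0.83 ± 0.10 (adjusted p = 0.012, limma), and its other probe set differed by -0.81. Npm1 has processed pseudogene copies, and the files do not say whether its probe sets match these too. The cell cycle list had 0 of 24 tested members called and a median of 0.06 (at an unadjusted p under 0.05, 0 lower and 0 higher, limma). Ro60, an RNA-binding protein that holds misfolded small RNAs, stood at 7.72 and 7.31 in wild-type and 6.71 and 6.45 in knockout and fell by 0.93 ± 0.15 (adjusted p = 0.0435, limma), and its 3 other probe sets differed by -0.93, -0.82 and -0.68. Its wild-type arrays were 0.41 apart, replicate 1 being the higher.

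Myom1, which encodes myomesin of the muscle M-band, was the only called member of the skeletal muscle list. It stood at 6.66 and 6.28 in wild-type and 5.02 and 5.19 in knockout and fell by 1.37 ± 0.15 (adjusted p = 0.0111, limma). The 9 other tested muscle genes, among them the actin gene Acta1 and the creatine kinase gene Ckm, differed by -0.16 to 0.16 with a median of 0.06. The fall of Myom1 was thus not shared by the list. Capn3, the muscle calpain, was outside the lists and fell by 0.99 ± 0.14.

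Genes of fibrillar collagen and bone matrix were mostly lower, and 2 of 23 tested members fell, against 0.365% of all genes. Of the 23, 20 were negative and the median was -0.26. At an unadjusted p under 0.05, 10 were lower and 0 higher (limma), against 3.87% and 2.88% of all genes. The knockout arrays lay below both wild-type arrays for 14 of them, as on 19.3% of all genes. The chains of type I collagen, the main protein of bone, were the 2 that fell. Col1a1 stood at 9.38 and 8.87 in wild-type and 7.97 and 7.85 in knockout and fell by 1.22 ± 0.17 (adjusted p = 0.0303, limma). Col1a2 stood at 11.29 and 11.11 in wild-type and 10.47 and 10.41 in knockout and fell by 0.76 ± 0.12 (adjusted p = 0.0491, limma). Col11a1 differed by -0.75, Sparc, the osteonectin gene of the cargo list, by -0.69 and Col5a2 by -0.53, whereas the osteoblast genes Alpl and Sp7 differed by 0.03 and -0.15, and none of these passed. Itgb3 was the only called gene of 8 tested osteoclast genes, whose median was 0.01.

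Basement membrane genes, the neighbours of type XVIII collagen in the matrix, were mixed in sign. Of 16 tested members 2 fell, against 0.365% of all genes, 10 were negative and the median was -0.07. At an unadjusted p under 0.05, 5 were lower and 0 higher (limma), against 3.87% and 2.88% of all genes. The knockout arrays lay below both wild-type arrays for 6 members and above both for 3, against 19.3% and 23.8% of all genes. Nid1, the nidogen that joins laminin to type IV collagen, stood at 6.75 and 6.46 in wild-type and 5.68 and 5.87 in knockout and fell by 0.83 ± 0.12 (adjusted p = 0.0328, limma). Col4a2, a chain of type IV collagen, stood at 5.93 and 6.09 in wild-type and 5.39 and 5.15 in knockout and fell by 0.74 ± 0.12 (adjusted p = 0.0449, limma). Its partner chain Col4a1 stood at 7.55 and 6.74 in wild-type and 6.40 and 6.38 in knockout, differing by -0.76 without passing. The proteoglycan genes Hspg2 (perlecan) and Agrn (agrin), which like type XVIII collagen carry heparan sulfate, differed by 0.11 and 0.10, and of 11 tested heparan sulfate proteoglycan genes 0 were called in either direction, against 1 lower and 1 higher at an unadjusted p under 0.05 (limma). Of 21 tested matrix proteases and inhibitors, Timp3, a matrix-bound inhibitor of metalloproteinases, was the only called member. It stood at 8.21 and 7.94 in wild-type and 7.14 and 7.20 in knockout and fell by 0.90 ± 0.11 (adjusted p = 0.0135, limma).

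Vessel, stromal niche and fat cell genes were low on average but had no called member. Of 18 tested endothelial genes 15 were negative with a median of -0.15, and 6 were lower and 1 higher at an unadjusted p under 0.05 (limma). Flt4, the receptor for VEGF-C, differed by -0.62, Cdh5, the endothelial cadherin gene, by -0.61 and Kdr, the main receptor for VEGF-A, by -0.09. Of 16 tested genes of the stromal niche 14 were negative with a median of -0.27, and 4 were lower and 0 higher at an unadjusted p under 0.05. Pdgfrb, a marker of perivascular cells, stood at 7.63 and 7.04 in wild-type and 6.49 and 6.79 in knockout. The niche factor genes Cxcl12 and Kitl differed by -0.35 and -0.32. Wild-type replicate 1 exceeded replicate 2 in the list means by 0.25 in the niche, 0.39 in the 4 adipocyte genes, 0.19 in fibrillar and bone matrix and 0.18 in the endothelial list, and the knockout arrays differed by under 0.05 in these lists. The niche median was -0.12 when wild-type replicate 1 was left out and -0.52 when wild-type replicate 2 was left out. The part of the wild-type gap in these differences was not tested.

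Of 18 tested integrin genes 3 fell, against 0.365% of all genes, and 2 of the 3 are the chains of the fibrinogen receptor. The remaining one, Itga6, a laminin receptor chain of platelets, stem cells and endothelium, stood at 9.73 and 9.49 in wild-type and 8.82 and 8.87 in knockout and fell by 0.77 ± 0.10 (adjusted p = 0.0219, limma). Itgb1, the beta chain shared by most matrix receptors, differed by 0.14. Of the 18 integrin genes 10 were negative and 8 positive, with a median of -0.07. The knockout arrays lay below both wild-type arrays for 8 and above both for 6, against 19.3% and 23.8% of all genes. Of 17 tested genes of stem and progenitor cells Slamf1 alone fell. Slamf1 is a marker used to sort hematopoietic stem cells, and megakaryocytes carry it too. It stood at 8.06 and 7.60 in wild-type and 6.75 and 6.83 in knockout and fell by 1.04 ± 0.14 (adjusted p = 0.023, limma). The stem cell genes Procr, Hlf and Mecom differed by -0.03, -0.08 and 0.19, Kit by 0.09, and the list median was 0.00.

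The genes that rose belong mostly to inducible programs. Jun, a subunit of the AP-1 factor, stood at 8.76 and 8.38 in wild-type and 9.88 and 9.89 in knockout and rose by 1.31 ± 0.16 (adjusted p = 0.013, limma). Dusp1, a phosphatase that switches off MAP kinases, stood at 10.40 and 10.69 in wild-type and 11.57 and 11.44 in knockout and rose by 0.96 ± 0.12 (adjusted p = 0.013, limma). In both genes the knockout arrays were close together and above both wild-type arrays, while the higher wild-type array was replicate 1 for Jun and replicate 2 for Dusp1. Cxcl2, a chemokine that draws neutrophils, stood at 5.55 and 5.68 in wild-type and 6.93 and 7.06 in knockout and rose by 1.38 ± 0.15 (adjusted p = 0.0111, limma). Ptgs2, the inducible cyclooxygenase, stood at 4.41 and 4.60 in wild-type and 6.36 and 5.68 in knockout and rose by 1.52 ± 0.24 (adjusted p = 0.0488, limma), with its knockout arrays 0.68 apart. Ptgs2 reached the level of 5 asked for testing on the knockout bone marrow arrays alone, so it could be tested only because it was high there.

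Other members of these programs were higher without passing. Of 28 tested immediate early genes 2 rose, 20 were positive and the median was 0.10. Of 21 tested inducible inflammatory genes 2 rose, 17 were positive and the median was 0.19, or 0.09 with no filter. Ptgs2, among these 2, could be tested only through the knockout arrays. Of all genes 0.0457% rose, and 7140 of 13136 were positive. At an unadjusted p under 0.05, 6 and 7 members were higher and 0 lower (limma), against 2.88% and 3.87% of all genes. In 12 and 10 members the knockout arrays lay above both wild-type arrays, against 23.8% of all genes. The AP-1 partner gene Fos stood at 10.84 and 10.70 in wild-type and 11.87 and 11.58 in knockout (difference 0.95, adjusted p = 0.153, limma). The chemokine gene Ccl3 stood at 7.33 and 7.52 in wild-type and 8.47 and 8.46 in knockout (difference 1.04, adjusted p = 0.109, limma). For Fos and Ccl3 each knockout array lay above each wild-type array, as on 23.8% of all genes. Atf3 differed by 0.87, the cytokine gene Osm by 0.71, Ccl4 by 0.60 and Junb by 0.53. The rise did not take in the whole program, since Myc differed by -0.18, Klf4 by -0.16, Il1a by -0.16, Tnfaip3 by -0.01 and Nfkbia by 0.05. Of 13 tested heat shock genes 0 were called, 2 being higher and 0 lower at an unadjusted p under 0.05 (limma). These were Hspa1a, at 6.42 and 7.53 in wild-type and 8.14 and 8.64 in knockout, and Hspa1b, at 8.64 and 10.06 in wild-type and 10.06 and 10.96 in knockout. The wild-type arrays of Hspa1b were 1.42 apart.

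**Figure D3:**
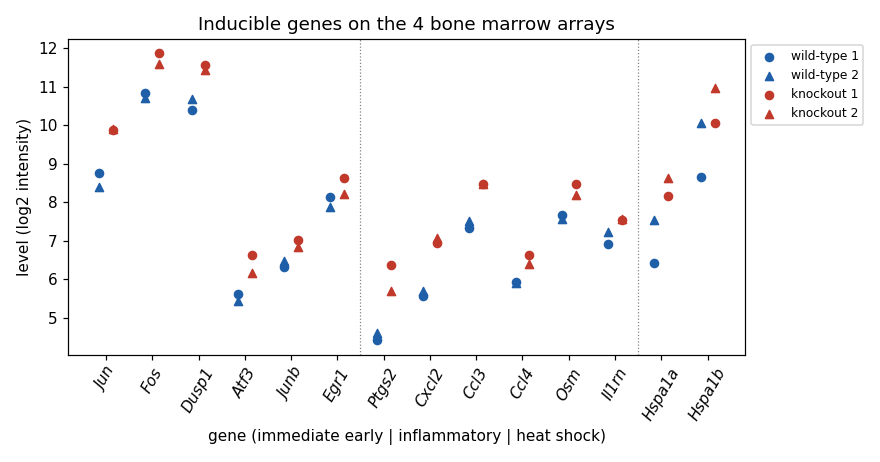
Log2 level (vertical axis) of 14 inducible genes (horizontal axis) on the 4 bone marrow arrays, wild-type in blue and knockout in red, with circles for replicate 1 and triangles for replicate 2. Jun, Dusp1, Cxcl2 and Ptgs2 passed, and the wild-type arrays of Hspa1b differ by 1.42, more than the difference between the genotype means of 1.16.

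Foxo1 and Hnmt were the remaining genes that rose. Foxo1, a transcription factor needed for early B cell development, stood at 9.13 and 9.04 in wild-type and 9.70 and 9.74 in knockout and rose by 0.64 ± 0.10 (adjusted p = 0.0435, limma). Its 3 other probe sets differed by 0.36, 0.15 and -0.06, so the rise was not seen on all of them. Foxo1 was the only called member of 16 tested pro-B and pre-B genes, whose median was -0.08. In that list Dntt, the terminal transferase, differed by 0.47 and Rag2 by -0.35. Hnmt, which inactivates histamine, stood at 6.31 and 6.34 in wild-type and 7.04 and 6.94 in knockout and rose by 0.66 ± 0.10 (adjusted p = 0.0435, limma).

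Lists of other lineages had 0 or 1 called gene. None of the lists of neutrophil primary granules (5 tested), neutrophil later granules and surface (14), monocytes and macrophages (19), eosinophils, basophils and mast cells (13), mature B cells (13), plasma cells (5), T and NK cells (12), dendritic cells (8), erythroid genes (18), heme synthesis (10) and interferon response (18) had a called member in either direction (limma). At an unadjusted p under 0.05, 14 of the 135 tested members of these lists (10.4%) were higher, 6 of them in the monocyte and macrophage list, against 2.88% of all genes, and 1 (0.741%) was lower, against 3.87%. The neutrophil medians were -0.01 and 0.05 and the erythroid median 0.08, against 0.01 for all genes. Monocyte and macrophage genes had a median of 0.18 and 12 of 19 lay above both wild-type arrays in both knockout arrays, against 23.8% of all genes. In that list the Fc receptor gene Fcgr1 differed by 0.51 and Cd14 by 0.40. Among eosinophil genes Epx, the eosinophil peroxidase, differed by 0.42, and the list median was 0.18. Of 5 tested globin genes Hbb-y, an embryonic globin, fell by 0.62 ± 0.10 (adjusted p = 0.0416, limma) at a low level, from 5.19 and 5.28 in wild-type to 4.69 and 4.53 in knockout.

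**Figure D4:**
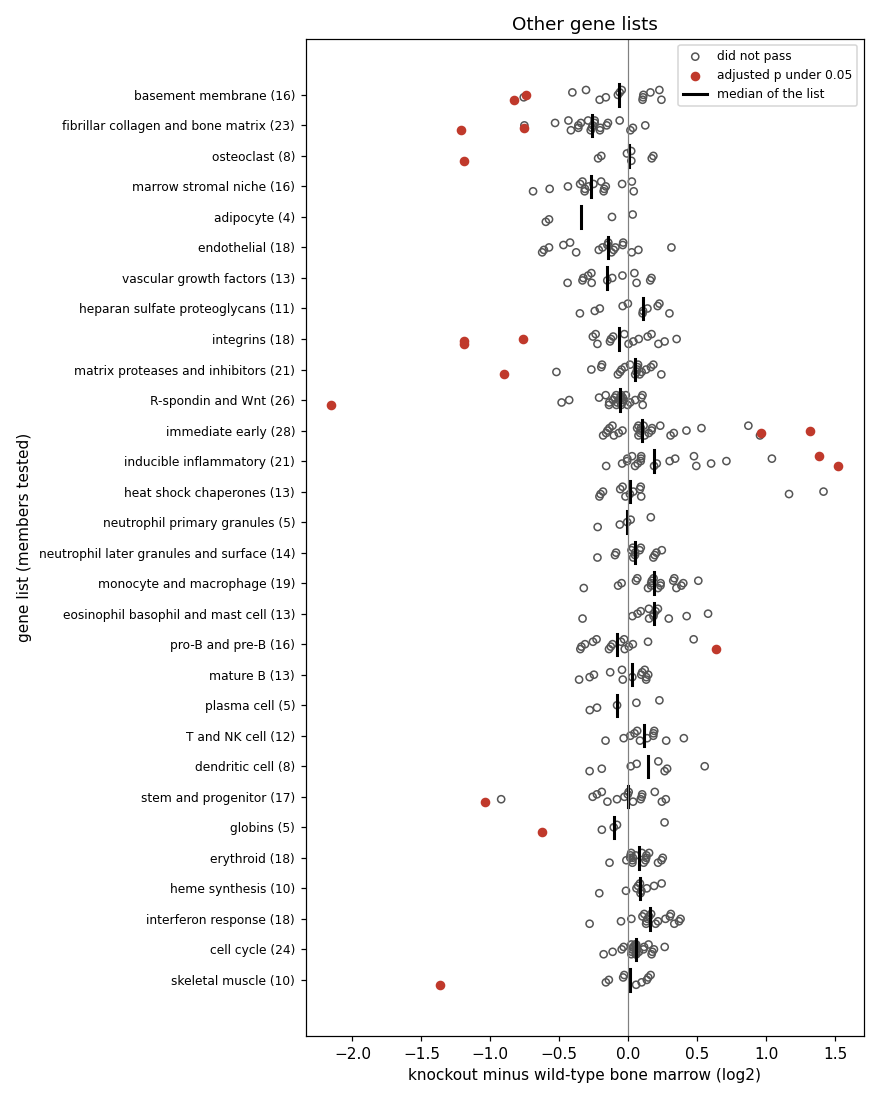
Knockout minus wild-type difference in bone marrow (log2, horizontal axis) for the tested genes of 30 further lists (vertical axis, members tested in parentheses), with genes past an adjusted p of 0.05 filled and each list median as a bar. The medians of the bone matrix and stromal niche lists lie at -0.26 and -0.27, that of the erythroid list at 0.08 and that of the monocyte and macrophage list at 0.18.

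The call of a gene rests on its brightest probe set, and the array holds 73 other probe sets for 36 of the 53 called genes beside Col18a1. Of the 44 of these that reached a level of 5 on at least 2 arrays, 41 had the same sign as the call and on 34 the genotypes did not overlap in that direction. Among all genes tested, the knockout arrays lay below both wild-type arrays on 19.3% and above both on 23.8%. Cavin2 differed by -1.14 and -1.17, Pde5a by -1.16 and -1.23, Alox12 by -1.02 and Itga6 by -0.95 on their other probe sets. Other genes differed far less on theirs than on the probe set that was called: Gp1bb by -0.38, Gucy1b1 by -0.37, Itgb3 by -0.22 and, on the brighter of 2, Nid1 by -0.18. Of those that reached a level of 5, a probe set of Kalrn differed by -0.48, of Cavin1 by -0.19 and of Gas2l1 by -0.18. Those of Ank3 differed by -0.49 and -0.28. The 3 that had the opposite sign belong to Tmem158 (0.10), Vasn (0.23) and Foxo1 (-0.06). Of the 29 dimmer probe sets 18 had the same sign as the call. The other probe sets measure the same RNA, and are no further replicates of the genotype.

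Genes near the knocked-out locus were also counted. Of 217 tested genes within 10 Mb of Col18a1 on chromosome 10, 2 were called beside Col18a1, which is 0.922% against 0.411% of all genes. These were Ank3, the ankyrin G gene, which fell by 1.02 ± 0.15, and Timp3. The median difference of the 217 genes was -0.01, and the knockout arrays lay below both wild-type arrays on 22.1% of them, against 19.3% of all genes.

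Fetal liver, the site of blood formation before birth, also holds megakaryocytes, and the same loss was measured there with 2 arrays per genotype. Of the 53 genes called in bone marrow beside Col18a1, 0 were called in fetal liver, where 42 genes (0.32%) of 13136 passed (limma). The 47 genes that fell in bone marrow differed in fetal liver by -0.61 to 0.28 with a median of -0.02, 27 of them being negative. The largest of these fetal liver differences was that of Mfap3l. A test of the difference between the tissues passed for 12 genes (0.0914%, limma), 5 of them called in bone marrow.

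Lgr4 stood at 9.85 and 9.71 in wild-type and 9.76 and 9.86 in knockout fetal liver, and its differences in the tissues were 2.18 ± 0.13 apart (adjusted p = 0.000296, limma). The genotypes overlapped in fetal liver, although the gene was well measured there. Tubb1 stood at 9.52 and 9.71 in wild-type and 9.73 and 9.69 in knockout fetal liver, with 1.56 ± 0.19 between the tissues (adjusted p = 0.0471, limma). Ppbp stood at 10.81 and 10.98 in wild-type and 11.02 and 11.08 in knockout fetal liver, with 1.20 ± 0.14 between the tissues (adjusted p = 0.0353, limma). The platelet genes Tubb1 and Ppbp were thus measured in fetal liver without the fall of the bone marrow arrays. Their wild-type fetal liver means, 9.62 and 10.90, were however no higher than their knockout bone marrow means, 9.64 and 11.77. Of the 47 genes that fell in bone marrow, 16 had a wild-type level in fetal liver at or above that in wild-type bone marrow. Alox12 and Myom1 passed as well, with 1.39 ± 0.17 and 1.58 ± 0.21 between the tissues (adjusted p = 0.0472 and 0.0494, limma). For the other 42 genes that fell in bone marrow the difference between the tissues did not pass, so it is not shown that they differ. The fetal liver pools of the genotypes also differed in sex-linked genes, which the male bone marrow pools did not, so genotype and sex-linked expression cover the same fetal liver arrays and cannot be told apart there. When Xist and the genes of chromosome Y were left out of the adjustment, the test between the tissues passed for 1 gene, Lgr4 (adjusted p = 0.00118, limma), while Tubb1, Ppbp, Alox12 and Myom1 each had an adjusted p of 0.0718 (limma). The count of 12 lay between 5 and 80 when 1 array was left out, with 20 calls when bone marrow replicate 2 of the wild-type was missing, 80 when fetal liver replicate 2 of the knockout was missing and 5 for each remaining array.

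**Figure D5:**
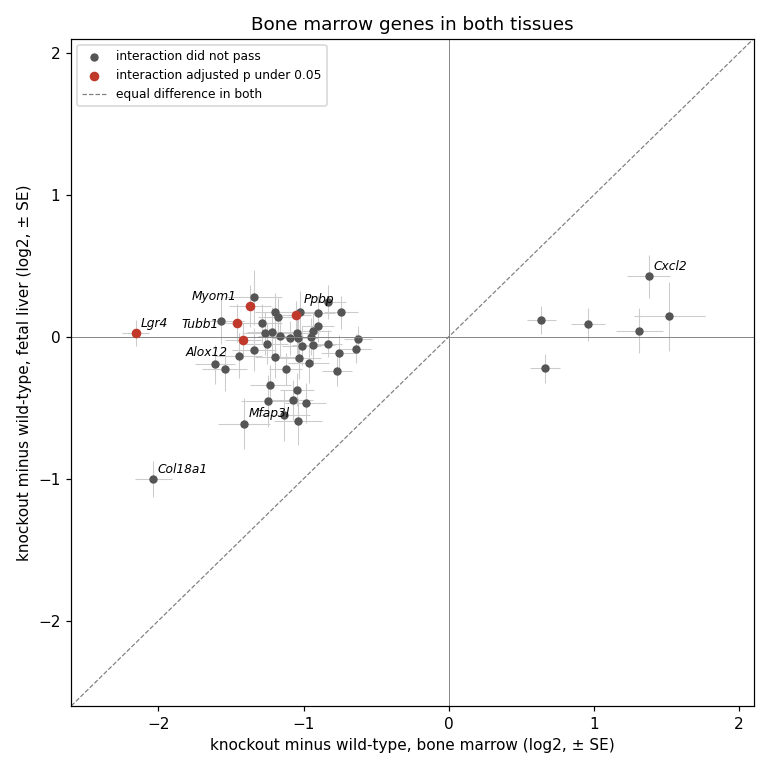
Knockout minus wild-type difference (log2, ± SE) of the 54 genes called in bone marrow, in bone marrow (horizontal axis) and in fetal liver (vertical axis), with genes whose difference between the tissues passed in red and equal differences on the dashed line. Apart from Col18a1, at -2.03 and -1.003, the genes that fell in bone marrow lie between -0.61 and 0.28 in fetal liver.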

How the data were processed

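Total RNA of bone marrow (4 arrays) and fetal liver (4 arrays) was hybridised to Affymetrix mouse genome arrays, per the labels. The deposited values are linear intensities of 45101 probe sets, made by the authors with RMA (version not stated) per the submitters' processing notes. The quantile normalization in RMA removes a shift shared by most genes. Differences of dim probe sets are compressed in RMA values. Deposited intensities were converted to log2 before testing. Of the probe sets, 34958 name 1 gene, 932 several and 9211 none here. Entrez identifiers of 34754 were found in RefSeq (GRCm38.p6), and 0 symbols changed. The brightest probe set, by its mean over the 8 arrays, stood for each of 18194 genes, and the test took the 13136 that reached a log2 level of 5 on 2 arrays or more. Col18a1 values of its second probe set are those of that probe set alone.

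In R 4.3.3, limma 3.58.1 fitted the 4 group means to the 8 arrays together (4 residual and 4.48 prior degrees of freedom), with Benjamini-Hochberg adjustment over the 13136 genes at 0.05, two-sided. The fit was tested on simulated data. Lists, written by hand, are described by counts and medians, with no test. Named are Col18a1, the called genes, their other probe sets, and list members that were called, had a large or small moderated t or define the list. The comparison and the lists were chosen with earlier results of these data known, so their patterns are no independent support. Other filters, probe set choices, normalizations, log offsets, variance models, array weights, a replicate block, subsets of arrays and thresholds were tried as alternatives.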

Additional observations from a re-analysis of the deposited data

Results flagged for a closer look

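The genotype difference differed between bone marrow and fetal liver, by the test of that difference over all 8 arrays, for 5 genes that fell in bone marrow (fetal liver difference minus bone marrow difference, log2, limma). The value was 2.18 for Lgr4, 1.58 for Myom1, 1.56 for Tubb1, 1.39 for Alox12 and 1.2 for Ppbp. When Xist and the genes of chromosome Y were left out of the adjustment, Lgr4 alone passed (adjusted p = 0.00118, limma). Myom1, Tubb1, Alox12 and Ppbp then each had an adjusted p of 0.0718 (limma). Genotype and sex-linked expression cannot be told apart on the fetal liver arrays. Myom1 was dim in fetal liver, at 4.56 and 4.78 in wild-type and 4.80 and 4.98 in knockout. Alox12 stood at 7.50 and 7.63 in wild-type and 7.60 and 7.48 in knockout fetal liver, close to its levels in knockout bone marrow.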

How the results depend on the processing

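The differences of the 54 called genes and 39 other named genes, 93 in all, had 1759 values under the alternatives, of which 1357 kept their side of the threshold, 348 lost the call, 54 gained it and 0 changed sign. Col18a1 was called throughout. The 54 calls in bone marrow became 90 with 16 added before the logarithm, 97 with a trended and robust variance, 109 with array weights, 3 with the bone marrow arrays alone, 88 at a threshold of 0.1 and 9 at 0.01, and lay between 2 and 76 with 1 array left out. With the replicate number as a block within tissue there were 34 calls and 6 for the interaction. The labels do not say that a shared number pairs pools, and same-numbered bone marrow arrays deviated from their group means with a correlation of -0.00356. The 12 interaction calls became 5 with no filter, 19 after another quantile normalization, 36 with 16 added, 68 with a trended and robust variance, 6 with array weights, 77 at 0.1 and 1 when Xist and chromosome Y genes were left out of the adjustment, and lay between 5 and 80 with 1 array left out. The cause of these shifts was not tested. Where each probe set was fitted on its own, only the probe set chosen for the gene was counted. The 1759 values therefore do not show other probe sets singly.

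The receptor median was -0.87 with a filter at 6 and -0.31 with 16 added, the cargo median -0.55 with no filter, the inflammatory median 0.0932 with no filter and 0.0916 over single probe sets, the niche median -0.13 with the mean of probe sets and the cytoskeletal median -0.14 over single probe sets. The transcription factor median turned to 0.0174 with the mean of probe sets and 0.0161 without knockout replicate 1, and was -0.0193 over single probe sets, -0.0101 after quantile normalization and -0.0188 after median centring. With 1 array left out, medians lay between -0.57 and -0.30 for receptors, -0.90 and -0.52 for cargo, -0.35 and -0.17 for the cytoskeleton, -0.0622 and 0.0161 for transcription factors, -0.44 and -0.22 for fibrillar and bone matrix, -0.14 and -0.0048 for basement membrane, -0.52 and -0.12 for the niche, and 0.14 and 0.26 for monocytes and macrophages. Signal near background limits the dim genes, 3 of the 47 that fell having a wild-type mean under 6.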
